A study of Rattus norvegicus with 8 samples.

Results

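The livers of 4 untreated rats were set against a pool of RNA from many sources, to show which transcripts an adult rat liver holds above or below that pool. The study measured liver messenger RNA of adult male Sprague-Dawley rats fed a control diet or a diet holding 50 mg/kg of perfluorooctane sulfonate (PFOS) for 28 days, on 8 dual-colour Agilent 60-mer arrays. The 4 arrays described here are all those of the control diet, 1 rat each, called control 1 to control 4; the other 4 arrays, of PFOS-fed rats, enter no value. On every array the liver RNA carried the red dye Cy5 and Agilent's Universal Rat Reference RNA carried the green dye Cy3. The reference is 1 commercial pool of total RNA, whose composition the labels do not give, and the dyes were never swapped, so a dye effect and a true difference from the pool cannot be told apart. All 4 animals were male and from 1 diet group, and RNA was taken from whole liver, so fewer cells of a type and less RNA per cell cannot be told apart either.

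The liver makes most plasma proteins, clears ammonia through the urea cycle, makes glucose from lactate and amino acids, makes bile acids from cholesterol, and oxidizes and conjugates foreign compounds. Hepatocytes do most of this work and rarely divide in the adult; Kupffer cells (resident macrophages), sinusoidal endothelium, stellate cells and bile duct cells make up the rest of the organ. A dual-colour ratio against a pool shows, gene by gene, how far the liver lies above or below an average of many tissues or cells; it does not rank one gene's level against another's.

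Each value is the log2 ratio of liver over reference for 1 gene on 1 array, after background correction and a within-array normalization that centres most genes near 0. A value of 1 is therefore a liver signal 2 times that of the pool, and -1 is the reverse. A gene was tested where its probe was well above background in at least one channel on 3 or more of the 4 arrays, and was called higher or lower when limma's test against a minimum fold of 2 gave a Benjamini-Hochberg adjusted p under 0.05. The array gave 20021 tested genes and unnamed features of 26896, of which 12146 carried a gene symbol. Of the array's probes, 52.6 to 59.1% were above background in the liver channel and 73.2 to 76.5% in the reference channel, and the 4 arrays correlated at 0.978 to 0.982 across features. Spike-in RNAs lay 1.60 to 1.84 above their design ratio on this scale. That design ratio was inferred from the scanner software's own fit of the spike-ins, since no table of their ratios was used. With ratios centred on them the median gene moved to -1.75. The zero of the ratio therefore belongs to the normalization, and small ratios are given below with that limit. A constant shift of the centre, as on the spike-ins, leaves differences between genes as they are. Median centring in place of loess does not. It raised the median of the erythroid list below from 0.05 to 0.73 and lowered that of cytosolic ribosomal proteins from -0.62 to -1.54.

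Of the 20021 features, 4747 (23.7%) were called: 2589 (12.9%) higher in liver and 2158 (10.8%) lower. With the spike-ins as the centre, an alternative chosen after seeing the data, the split was 940 higher and 14639 lower. On the loess centre more features lay far above the pool than far below it. The mean ratio was at least 16-fold for 595 features called higher and for 89 called lower, and at least 64-fold for 267 and 2. The mean log2 ratio ran from -6.66 to 12.04, with the 5th percentile at -1.87 and the 95th at 2.85, while the median SD between the 4 rats was 0.14.

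**Figure D1:**
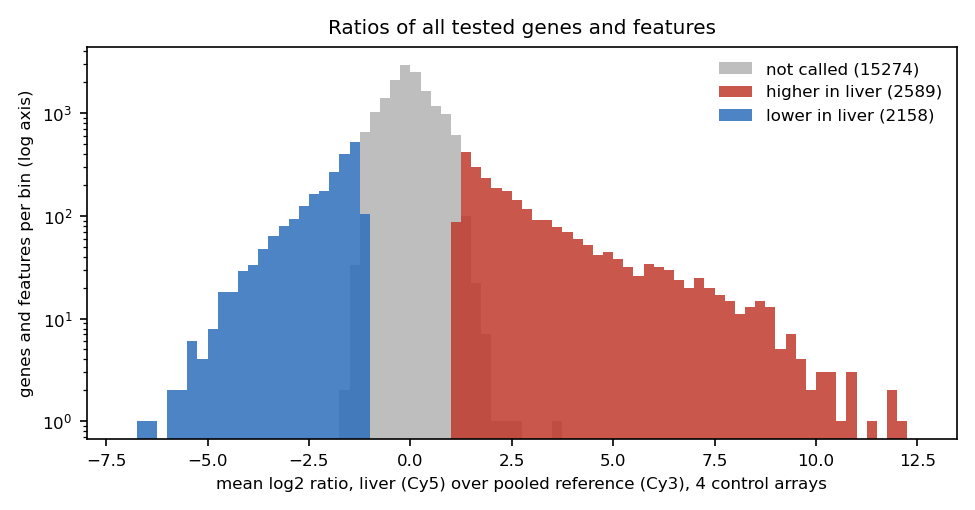
Histogram of the mean log2 ratio of liver over pooled reference for the 20021 tested genes and features, on 4 control arrays, with a log count axis; grey bars are features not called, red bars those called higher and blue bars those called lower. The right tail reaches 12.04 and the left tail -6.66.

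The highest ratios belonged to secreted and metabolic genes of the hepatocyte. Among genes above background in both channels on all 4 arrays, the top was Mup4l1, of the major urinary protein family of small-molecule carriers that male rodent livers export, at 11.54, 11.996, 11.73 and 12.08 in controls 1 to 4. Rup2, at 11.27, 11.46, 11.27 and 11.57, and Mup4l3, at 10.65, 10.73, 10.77 and 11.22, followed it. All 4 rats lay above 10 for these 3 genes, and the probes of close family members may not tell each copy apart. Slc27a2, a very-long-chain acyl-CoA synthetase, lay at 10.57, 11.08, 10.68 and 10.78, and Slc27a5, which activates bile acids, at 10.12, 10.51, 10.56 and 10.31. Fabp1, the cytosolic fatty acid carrier of hepatocytes, lay at 10.14, 10.22, 9.92 and 10.23, a mean 1116-fold excess (adjusted p = 7.41e-10). The rest of the 15 highest were Cyp4a2, Cyp3a2, Slc10a1, C4bpb, Apcs, Serpina3c, Apoc1, Sult1c3 and Ttr, with means from 9.50 to 10.56 and SDs from 0.15 to 0.36.

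For some genes the reference gave no signal above background on any array, so the ratio is only a lower bound. Here the mean liver signal is set against the higher of the gene's own reference signal and the dimmest reference signal that was above background. Fgl1, a liver-secreted fibrinogen-like protein, was at least 282-fold higher. Elovl2, which lengthens polyunsaturated fatty acids, was at least 190-fold higher, Gdf2, the circulating BMP9, at least 126-fold, and Acox2, a peroxisomal oxidase of the bile acid pathway, at least 84.6-fold. Adh4, Dhrs7l1 and Clec14a, an endothelial lectin, had bounds of 62, 57.8 and 48.8-fold. A dimmer probe of Elovl2 lay at 4.91 and one of Clec14a at 2.34, against 7.63 and 5.61 by the probes used. In all, 62 features called higher lay below background in the reference on every array, and 256 called lower lay below background in the liver on every array.

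Plasma protein genes stood together at the high end. Of 28 tested plasma carrier and transport genes, 27 were called higher and none lower, with a median log2 ratio of 7.58, against -0.03 over all tested features. Alb, serum albumin, lay at 8.85, 9.20, 8.73 and 9.14 in controls 1 to 4, a mean of 8.98 ± 0.23 (SD, n = 4) or 504-fold (adjusted p = 1.34e-09). Ttr, the transthyretin that carries thyroxine and retinol-binding protein, lay at 9.50 ± 0.26, and Gc, the vitamin D carrier, at 8.50 ± 0.05. Serpina1, the α1-antitrypsin gene, lay at 8.19 ± 0.12 and Itih4 at 8.80 ± 0.11. The member that was not called was Igfbp1, a fed-state-repressed carrier of insulin-like growth factors, at 0.22, -1.71, 0.10 and -1.13. Controls 1 and 3 lay just above the pool and controls 2 and 4 below it.

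All 19 tested coagulation and fibrinolysis genes were called higher (median 6.76), as were all 20 complement genes (median 6.61). Serpinc1, antithrombin, lay at 9.47 ± 0.11, Serpind1, heparin cofactor II, at 8.65 ± 0.09, and F12 at 8.33 ± 0.13. The fibrinogen chains Fga and Fgb lay at 8.48 ± 0.14 and 8.03 ± 0.08, with Fgb at 8.09, 8.10, 7.95 and 7.97 in the 4 rats. C4bpb and C4bpa, the chains of a soluble brake on complement, lay at 10.02 ± 0.33 and 8.84 ± 0.08, C9 of the membrane attack complex at 8.76 ± 0.16 and Cfb, factor B of the alternative pathway, at 8.61 ± 0.07. Of 22 apolipoprotein and lipoprotein assembly genes, 20 were called higher and none lower (median 6.36), among them Apoc1 at 9.61 ± 0.15, Apoc2 at 8.70 ± 0.13 and Apob, the scaffold of very-low-density lipoprotein, at 8.56 ± 0.08. With the spike-ins as centre, 27, 17, 17 and 18 members of these 4 lists were still called higher.

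**Figure D2:**
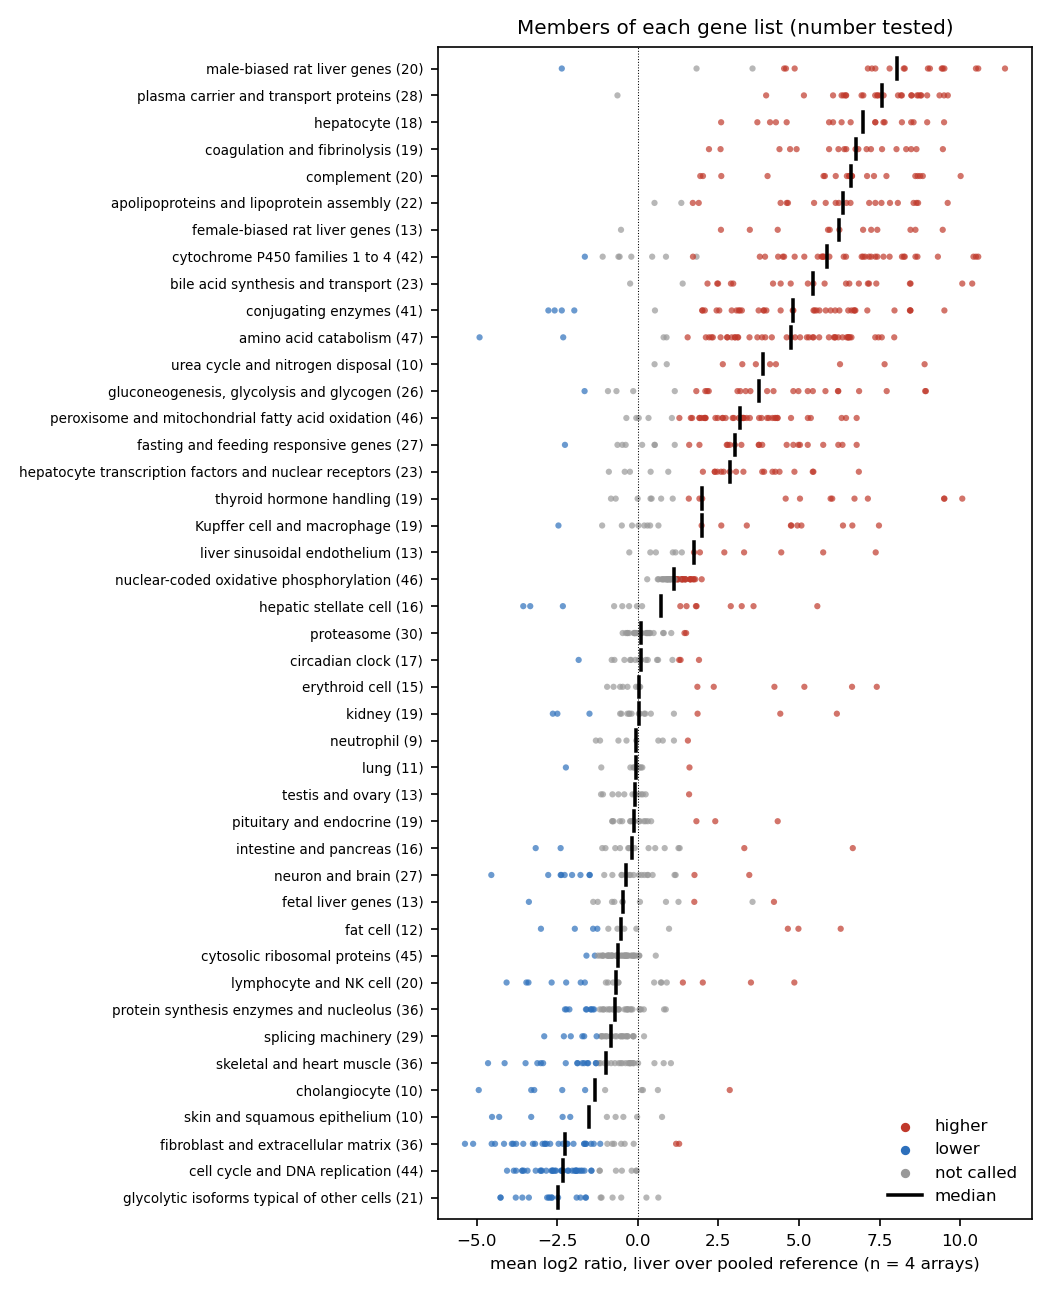
Mean log2 ratio of liver over pooled reference (horizontal axis, 4 control arrays) for each tested member of 43 gene lists, 1 row a list with its number of tested members; red points were called higher, blue lower and grey not called, and the black tick is the list's median. The highest medians are those of the male-biased list, 8.03, and of the plasma carriers, 7.58, and glycolytic isoforms of other cells at the bottom, with a median of -2.47.

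The promoters of the genes far above the pool differed in sequence from the rest. RefSeq promoters of the GRCr8 build, 250 bases before to 50 after the start, matched 9898 of the 12146 tested symbols. Those of 4 genes far above the pool and 2 far below it are shown, as the 250 bases before the start, 5′ to 3′ on the gene's strand. Capitals mark matches, on either strand, to the CEBP pattern TTGCNNAA, the HNF4 half-site AAAGTCC, the TATA box TATAAA, the GC box GGGCGG and the CCAAT box. HNF4 and the C/EBP proteins are transcription factors known for driving hepatocyte genes.
Alb (chr14:17906980-17907229, minus strand): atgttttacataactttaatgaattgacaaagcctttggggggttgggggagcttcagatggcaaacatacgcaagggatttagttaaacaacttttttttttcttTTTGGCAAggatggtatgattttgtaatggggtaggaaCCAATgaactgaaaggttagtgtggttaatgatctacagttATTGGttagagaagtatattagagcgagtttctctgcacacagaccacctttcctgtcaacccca
Fgb (chr2:170700876-170701125, minus strand): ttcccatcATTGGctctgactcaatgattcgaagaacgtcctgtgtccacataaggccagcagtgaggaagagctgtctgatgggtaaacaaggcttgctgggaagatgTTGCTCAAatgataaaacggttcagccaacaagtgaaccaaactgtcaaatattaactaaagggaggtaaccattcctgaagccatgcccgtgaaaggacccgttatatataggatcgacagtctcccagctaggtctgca
Slc10a1 (chr6:106357945-106358194, minus strand): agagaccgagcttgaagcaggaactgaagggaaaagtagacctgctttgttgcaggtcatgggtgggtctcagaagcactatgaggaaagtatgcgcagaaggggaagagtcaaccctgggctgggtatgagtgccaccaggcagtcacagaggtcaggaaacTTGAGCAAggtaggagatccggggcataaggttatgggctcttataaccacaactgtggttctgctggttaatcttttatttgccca
Cyp2c11 (chr1:246174966-246175215, plus strand): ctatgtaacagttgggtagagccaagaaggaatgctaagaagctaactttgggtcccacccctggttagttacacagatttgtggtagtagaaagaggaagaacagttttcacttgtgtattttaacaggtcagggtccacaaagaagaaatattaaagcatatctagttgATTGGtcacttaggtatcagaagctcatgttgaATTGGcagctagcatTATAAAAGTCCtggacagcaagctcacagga
Cdk1 (chr20:19265043-19265292, plus strand): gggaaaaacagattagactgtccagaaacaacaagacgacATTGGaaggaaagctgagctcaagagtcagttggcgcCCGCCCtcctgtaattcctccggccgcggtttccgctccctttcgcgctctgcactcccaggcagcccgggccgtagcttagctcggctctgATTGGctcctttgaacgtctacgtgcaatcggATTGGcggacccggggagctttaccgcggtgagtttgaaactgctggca
S100a6 (chr2:178398287-178398536, plus strand): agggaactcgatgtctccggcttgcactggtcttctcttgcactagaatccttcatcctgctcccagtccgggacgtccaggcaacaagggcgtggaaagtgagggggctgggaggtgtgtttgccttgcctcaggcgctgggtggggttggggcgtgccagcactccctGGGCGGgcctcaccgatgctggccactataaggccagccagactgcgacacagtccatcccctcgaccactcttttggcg

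In these windows Alb held the CEBP pattern 144 bases before the start, counted from the first base of the match. Fgb held it at 141 bases and Slc10a1, the bile acid uptake carrier, at 87 bases. Cyp2c11, a male-specific steroid hydroxylase, held a TATA box at 31 bases that overlaps an HNF4 half-site at 27 bases. The promoters of Cdk1, the mitotic kinase, and S100a6, a calcium-binding protein of dividing and migrating cells, held neither of these liver patterns. They held a GC box each, at 173 and 80 bases. Neither held a TATA box, and nor did those of Alb, Fgb and Slc10a1. The whole 300-base windows of Alb, Fgb, Slc10a1 and Cyp2c11 held 2, 6, 3 and 0 CpG dinucleotides, and those of Cdk1 and S100a6 held 26 and 15. A match to these letters is a description of the window and not a binding site.

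Over all matched promoters these features differed most at the high end of the ratio. Among the 52 genes with a log2 ratio of 8 or more, the median promoter held 3.5 CpG, 40.4% held the CEBP pattern and 36.5% a TATA box. Among the 6573 genes between -1 and 1 the median was 20 CpG, and the shares were 9.1% and 8.08%. Genes between 2 and 4 resembled that middle group, with a median of 18 CpG and 9.43% with CEBP. The step came between 4 and 6, where the median fell to 5 CpG and 52.3% of promoters held at most 5. The GC box ran the other way, in 19.2% of promoters at 8 or more and 56.4% in the middle group. The HNF4 half-site lay in 11.5% at 8 or more, 4.92% between 6 and 8 and 3.62% in the middle group. An HNF1 half-site, GTTAAT, was counted as well but is not marked in the windows above. It lay in 25% of promoters at 8 or more, 4.79% in the middle group and 4.26% under -4. At the low end, the 47 genes under -4 also had fewer CpG (median 9) and more TATA boxes (36.2%), with the HNF4 half-site in none and the CEBP pattern in 17%. Over all 9898 promoters the shares were 9.51% for CEBP, 3.99% for HNF4, 8.79% for TATA, 56.8% for the GC box and 37.9% for CCAAT; fewer CpG and fewer GC letters go together, so the motif shares and base composition cannot be told apart here.

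**Figure D3:**
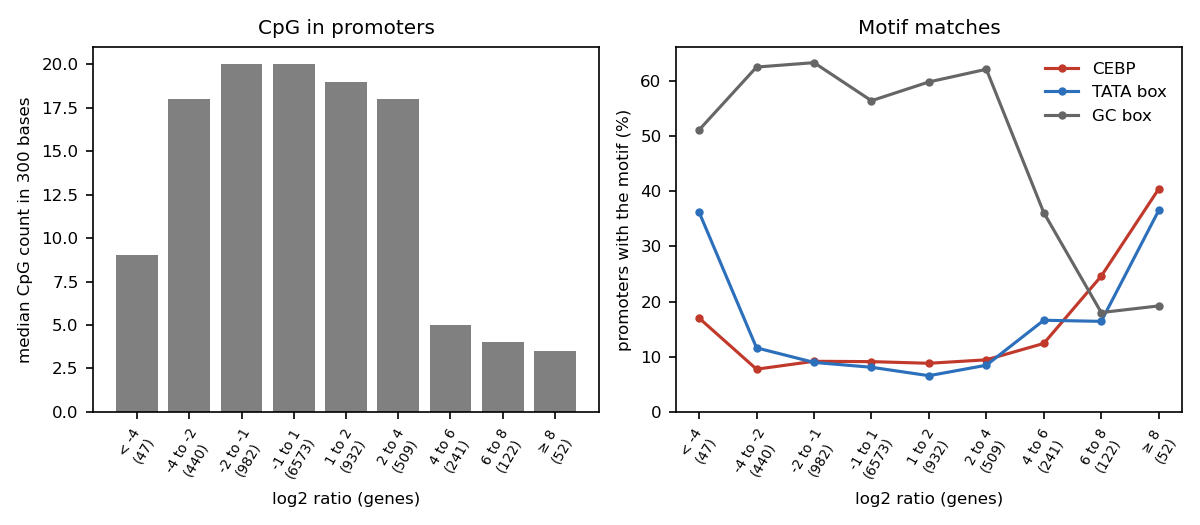
Left, median number of CpG dinucleotides in the 300-base promoter by range of the log2 ratio of liver over reference; right, percent of promoters with a match to 3 motifs, in the same ranges, with the number of genes under each. The median falls from 18 to 5 CpG between the ranges 2 to 4 and 4 to 6, and the CEBP share reaches 40.4% in the last range.

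Genes of drug, steroid and bile acid handling were high, with a few exceptions within each family. Of 42 tested cytochrome P450 genes of families 1 to 4, the enzymes that oxidize drugs, steroids and fatty acids, 34 were called higher and 1 lower (median 5.86). Cyp4a2 and Cyp4a3, fatty acid ω-hydroxylases, lay at 10.56 ± 0.29 and 10.41 ± 0.22 (Cyp4a3 above background in the reference on 3 arrays), Cyp3a2 at 10.49 ± 0.36, and Cyp2e1, the ethanol-oxidizing form, at 7.62 ± 0.17. Cyp2s1, a form of other epithelia, was the gene called lower, at -2.20, -1.58, -1.25 and -1.54, below the pool in all 4 rats by its brightest probe. Its other 2 probes lay at -0.30 and -0.13, and with the mean of the 3 (-0.69) it was not called. Cyp1b1, a form above background in liver on 1 array, lay at -1.09 ± 0.33 without a call. Sequences within these families are alike, so probes may share signal. Of 41 conjugating enzymes, 36 were called higher and 4 lower (median 4.81). Sult1c3, a sulfotransferase, lay at 9.51 ± 0.19, Ugt2b15, a glucuronosyltransferase, at 7.96 ± 0.16, and Mgst1, a microsomal glutathione transferase, at 5.54 ± 0.02. The 4 called lower were Gstp1, the glutathione transferase that adult hepatocytes lack, at -2.56, -2.98, -2.71 and -2.85, Gstm5 and Sult1c2 at -2.58 ± 0.29 and -2.36 ± 0.57, and Ugt2b7, at least 3.92-fold lower, with liver below background on all arrays.

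Of 23 bile acid genes, 21 were called higher and none lower (median 5.45). Slc10a1, the basolateral carrier, lay at 9.83, 10.18, 10.21 and 10.04 in the 4 rats (adjusted p = 7.41e-10), Abcb11, the canalicular export pump, at 7.400 ± 0.09, and Baat, which joins bile acids to glycine or taurine, at 8.44 ± 0.10. Cyp7a1, which sets the pace at which cholesterol turns into bile acids, had a wider spread, at 3.04, 2.18, 2.10 and 1.33. Its reference signal was below background on every array, so it was at least 4.48-fold higher. The size of its excess cannot be ranked against those above. Over the settings tried, its mean log2 ratio ran from 0.45 to 7.61. Slc51a, a basolateral exporter of the ileum, was below background in liver and was not called.

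Of 10 urea cycle and nitrogen disposal genes 8 were called higher and none lower (median 3.88), and of 47 amino acid catabolism genes 43 were higher and 2 lower (median 4.76). Otc lay at 8.90 ± 0.11, Arg1 at 7.66 ± 0.17 and Nags, which makes the activator of the first step, at 6.27 ± 0.14. Cps1, which carries out that step, lay at 4.29 ± 0.25. Glul, the glutamine synthetase of the hepatocytes around the central vein and of many other tissues, was not called, at 1.12, 0.66, 1.08 and 0.74. Hpd, of tyrosine breakdown, lay at 7.47 ± 0.06, Kynu, of tryptophan breakdown, at 7.57 ± 0.09, and Bhmt2 at 7.96 ± 0.15. Both genes called lower were branched-chain aminotransferases, whose step takes place mostly outside the liver. Bcat2 lay at -2.31, -2.38, -2.25 and -2.31, and Bcat1 was at least 30-fold lower, since liver gave no signal above background on any array.

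Carbohydrate genes separated by isoform. Of 26 tested genes of gluconeogenesis, glycolysis and glycogen in liver, 21 were called higher and 1 lower (median 3.75), while of 21 forms typical of other cells 15 were called lower and none higher (median -2.47). Slc2a2, the glucose carrier GLUT2, lay at 8.81, 8.94, 8.89 and 9.03 and Slc2a1, GLUT1, at -2.79, -2.77, -2.86 and -2.84. Every rat lay above the pool for the first and below it for the second. Hk1, the hexokinase of most tissues, lay at -2.47 ± 0.12, and Aldoa, the muscle aldolase, at -3.19, -3.48, -3.42 and -3.42. Pklr and Pkm, the liver and the widespread pyruvate kinase, lay at 4.83 ± 0.17 and -2.76 ± 0.13, and the glycogen synthases Gys2 and Gys1 at 5.82 ± 0.22 and -2.73 ± 0.03. Pck1, the cytosolic form of the gluconeogenic carboxykinase, lay at 4.98 ± 0.39 and Pck2, the mitochondrial form, at -1.65 ± 0.12. The pairs with the smallest separations were the glycogen phosphorylases Pygl and Pygb, at 2.20 ± 0.10 and -1.61 ± 0.16, and the carnitine palmitoyltransferases Cpt1a and Cpt1b, at 3.76 ± 0.47 and -0.05 ± 0.14; their log2 ratios differed by 3.81 in each case. The largest separation was that of Slc2a2 and Slc2a1, 11.73 ± 0.11 (SD, n = 4). The pairs were chosen with these values known and carry no test.

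**Figure D4:**
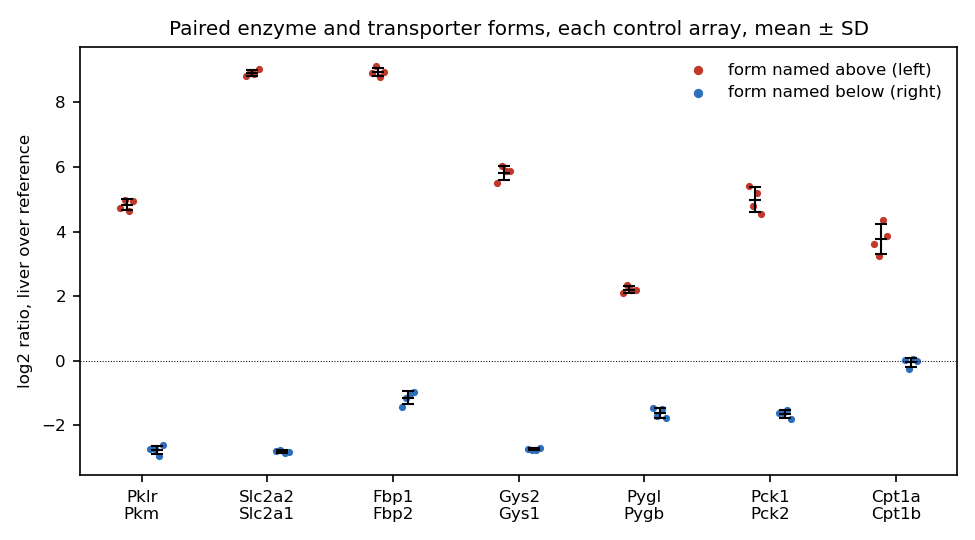
Log2 ratio of liver over reference for 7 pairs of related genes; each point is 1 of 4 control arrays, and the bar is the mean ± SD. Every liver form (red, left) lies above its partner (blue, right), from Pygl at 2.20 against Pygb at -1.61 to Slc2a2 at 8.92 against Slc2a1 at -2.81.

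On the main background setting, transcription factors that set the hepatocyte programme had a lower median than the lists of secreted proteins and liver enzymes above. Of 23 hepatocyte transcription factors and nuclear receptors 18 were called higher and none lower (median 2.85). With the spike-ins as centre 11 were higher and 4 lower (median 1.14). With a background offset of 0 the median was 4.06, above the urea cycle list at 3.89 and the liver carbohydrate list at 3.80. On the scanner's processed signals it was 4.13, against 3.66 and 3.80, so the order against these lists depends on the background setting. Nr1h4, the bile acid receptor FXR, lay at 6.82, 6.64, 7.08 and 6.89, and Nr1i2, the xenobiotic receptor PXR, at 5.50, 5.45, 5.36 and 5.41. A dimmer probe of Nr1h4 lay at 3.37. Creb3l3 and Nr1h3 lay at 4.86 ± 0.05 and 4.40 ± 0.10. Hnf4a lay at 2.59 ± 0.42, well below most plasma protein genes in ratio. Onecut1 varied, at 4.25, 3.01, 1.99 and 2.15.

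Genes of thyroid hormone handling, which the study's title names, were mixed: 12 of 19 were called higher and none lower (median 2.0, or 0.28 with the spike-ins as centre). Dio1, the deiodinase that activates thyroxine, lay at 6.07, 6.07, 5.91 and 6.09 (adjusted p = 1.37e-09), a mean 65.5-fold excess. Ttr and Thrsp, a thyroid-responsive lipogenic gene, lay at 9.50 ± 0.26 and 5.03 ± 0.11. The receptor Thra was not called, at -0.69 ± 0.15, and Dio3, the inactivating deiodinase, was above background in liver on 2 of 4 arrays and was not called.

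Genes known for a sex bias in rat liver were high in both lists. Of 20 male-biased genes 17 were called higher and 1 lower (median 8.03), and of 13 female-biased genes 12 were higher and none lower (median 6.26); Hao2 stands in both lists. Cyp2c11, the male-specific form, lay at 8.27, 8.25, 8.12 and 8.36, with Cyp2c13 at 8.28 ± 0.13 and Hsd3b5 at 9.001 ± 0.14. Cyp2c12, known as the female-specific form, lay at 9.03, 8.77, 8.94 and 7.71 in these male livers. Its liver signal was at least 359-fold above a reference signal that was at background. All 4 rats showed it, control 4 least. Over the settings tried, the mean log2 ratio of Cyp2c12 went down to 6.69. The array has 1 tested probe for it, and its sequence identity to other Cyp2c genes was not tested. A1bg, also known as female-predominant, lay at 1.80, 4.81, 1.59 and 2.12, with control 2 far above the others and the reference below background on every array (at least 5.98-fold higher).

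Of 46 peroxisomal and mitochondrial fatty acid oxidation genes 41 were called higher and none lower (median 3.17). Cat, the peroxisomal catalase, lay at 6.38, 6.32, 6.19 and 6.40 and Scp2 at 5.28 ± 0.08. Nuclear-coded subunits of oxidative phosphorylation lay closer to the pool, with 20 of 46 called higher and none lower (median 1.13), among them Ndufa4 at 1.98 ± 0.03 and Sdhd at 1.67 ± 0.06; with the spike-ins as centre none was higher and 1 lower (median -0.59), with median centring none was called (median 0.29), and 7 were higher by the authors' deposited table. The general machinery of the cell sat below them. Cytosolic ribosomal proteins had a median of -0.62, with 2 of 45 called lower, proteasome genes 0.10, with 2 of 30 called higher, and splicing genes -0.82, with 6 of 29 called lower. Of 36 genes of protein synthesis and the nucleolus 9 were called lower and none higher (median -0.72), with Npm1 at -2.21 ± 0.15 and Nop58 at -2.26 ± 0.08; the counts moved with the centre. On the spike-ins, 44 ribosomal, 25 proteasome, 29 splicing and 34 protein synthesis genes were called lower, and with median centring 35, 3, 22 and 27. None of these 4 lists then had a member called higher.

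Common control genes differed among themselves. Actb was called lower, at -1.46, -1.40, -1.83 and -1.70 (adjusted p = 0.000792). Gapdh, Hprt1, Tbp and Ppia were not called, at -0.24 ± 0.17, 0.01 ± 0.19, -0.40 ± 0.02 and 0.42 ± 0.09, and Hprt1 and Ppia lay below the pool after median centring and on the spike-ins' centre, where all 5 did.

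Markers of the other liver cells were detected at lower ratios than those of hepatocytes. All 18 tested hepatocyte markers were called higher (median 6.98). For Kupffer cells and macrophages 10 of 19 were higher and 1 lower (median 1.98), and Clec4f, the lectin that marks Kupffer cells, lay at 7.53, 7.58, 7.38 and 7.44. C1qa, C1qb and C1qc lay at 6.66 ± 0.21, 4.95 ± 0.09 and 4.75 ± 0.13, while Lyz2, common to all macrophages, was the one lower, at -2.46 ± 0.58. For sinusoidal endothelium 7 of 13 were higher and none lower (median 1.75), with Kdr at 7.38 ± 0.25 and Dnase1l3 at 4.45 ± 0.21. Stellate cell markers split, with 8 higher and 3 lower of 16 (median 0.73). Lrat, which stores vitamin A in these cells, was at least 45.2-fold higher by its brighter probe, with 2 tested probes at 5.57 and 0.91, and Vipr1 lay at 3.59 ± 0.11, but Acta2, Nes and Dcn lay at -2.32 ± 0.15, -3.34 ± 0.04 and -3.55 ± 0.27. Of 10 bile duct markers 1 was higher, 5 were lower and 4 were not called (median -1.32), with Krt7 at -3.31 ± 0.17 and Spp1 at -4.93 ± 0.14; Krt19 was not called, at -0.50, 0.29, -0.08 and 0.92. With the spike-ins as centre, 8 Kupffer cell genes were higher and 8 lower (median 0.26), 4 endothelial genes were higher and 2 lower (median 0.03), and 3 stellate genes were higher and 8 lower (median -0.99).

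Blood cell markers were present too. The globins Hbb and Hba-a1 lay at 7.62, 7.88, 7.28 and 6.88 and 5.50, 5.44, 4.91 and 4.83, and Alas2, the heme enzyme of red cell precursors, at 4.24 ± 0.86, whereas Gata1, Rhag and Sptb were below background in liver on all 4 arrays; in all 6 of 15 erythroid genes were called higher and none lower. Of 20 lymphocyte and NK cell genes 4 were higher and 7 lower (median -0.68). The cytotoxic genes Gzma and Prf1 and the chemokine Ccl5 lay at 3.51 ± 0.37, 2.02 ± 0.31 and 4.86 ± 0.23, while the T cell genes Cd3d and Cd3g lay at -3.39 ± 0.10 and -4.07 ± 0.11 and Gzmb at -3.46 ± 0.13. With the spike-ins as centre, 4 erythroid genes were higher and 9 lower, and 2 lymphocyte and NK cell genes were higher and 13 lower. On the scanner's processed signals 6 erythroid genes were higher and 4 lower, and 8 lymphocyte and NK cell genes were higher and 12 lower. What part these blood cells have in other genes' ratios was not tested.

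Lists of markers of other organs gave mixed counts. Over all tested features 12.9% were called higher and 10.8% lower, and the kidney, intestine and pancreas, and lung lists lay near these shares. Of 36 muscle genes 15 were called lower and none higher (median -0.99), with 11 below background in liver on all arrays. Of 27 neuron genes 9 were lower and 2 higher, with 10 below background. The array holds 41 and 46 genes of these lists, and those too dim in both channels for the filter were not tested. A gene below background in liver was tested only through its reference signal, so it could hardly be called higher. For skin 5 of 10 were lower and none higher, for fat 4 of 12 lower and 3 higher, for kidney 3 of 19 each way, and for intestine and pancreas 2 of 16 each way. For lung 1 of 11 was called each way, for testis and ovary 1 of 13 was higher, and for pituitary and endocrine cells 3 of 19 were higher. Some genes on such lists were far above the pool. Slc22a8 and Miox, listed for kidney, lay at 6.15, 6.35, 5.95 and 6.26 and 4.42 ± 0.25, Fabp2, listed for intestine, at 6.67 ± 0.46, and Car3 and Cidec, listed for fat, at 6.30 ± 0.61 and 4.66 ± 0.10. Cidec coats lipid droplets and Slc22a8 takes up organic anions. Fetal genes did not stand apart, with 2 higher and 1 lower of 13 (median -0.47), but Afp, α-fetoprotein, lay at 4.09, 4.29, 4.45 and 4.07, a mean 18.7-fold excess over the pool, and Igf2 and H19 at -1.24 ± 0.29 and -1.38 ± 0.37 without a call (Igf2 was called lower without control 4, at -1.37).

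The lowest ratios came from genes of several kinds. Krt6c, a keratin of stratified epithelium, was lowest among genes above background in both channels, at -6.57, -6.65, -6.83 and -6.58 in controls 1 to 4 by its brightest probe, with the other 2 at -4.40 and -2.70. Anxa1, a phospholipid-binding protein, lay at -6.05, -5.67, -6.04 and -5.89, and Fst, the activin antagonist follistatin, at -5.71, -5.84, -5.71 and -5.53. Ccl2, a monocyte chemoattractant, lay at -5.74, -5.54, -5.73 and -5.29 and Cav1, the coat protein of caveolae, at -5.47, -5.13, -5.19 and -4.93. In each of these 5 genes every rat lay below -4. The others of the 15 lowest were Pou2af1, Rhox5, S100a6, Scd2, Ccn2, Gpr15lg, Emp1, Spp1, Mcpt8 and S100a11, from -5.47 to -4.78. Scd2 lay at -5.27 ± 0.19, while Scd, the stearoyl-CoA desaturase of liver, lay at 6.35 ± 0.69. Grem1, a BMP antagonist of fibroblasts, was below background in liver on every array and at least 83.8-fold lower by its brighter probe, with 2 tested probes at -6.39 and -2.73. Epdr1 was at least 40.3-fold lower and Il1rl1, the IL-33 receptor, at least 17.3-fold by its brighter probe, with 2 tested probes at -4.12 and -0.66.

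Of 36 fibroblast and extracellular matrix genes 28 were called lower and 2 higher (median -2.26). Col1a1, the main chain of fibrillar collagen, lay at -4.11, -4.03, -4.25 and -4.21 (adjusted p = 1.39e-08), and Ccn2, a matrix-associated growth factor, at -5.02, -5.00, -5.24 and -5.18, a mean 34.5-fold deficit. S100a6 lay at -5.36 ± 0.06 and S100a4 at -4.53 ± 0.12. The 2 called higher were Fn1, fibronectin, which hepatocytes secrete into plasma, at 1.28 ± 0.11, and Snai2 at 1.19 ± 0.09; both lay below the pool, at -0.43 and -0.53, after spike-in centring, and Snai2 lost its call when any 1 rat was left out, at 1.16 to 1.22 with fewer arrays tested. Fn1 has 2 tested probes, at 1.28 and 0.85, and was not called by their mean. Of 44 cell cycle and DNA replication genes 37 were called lower and none higher (median -2.33). Cdk1 lay at -4.09, -4.18, -3.80 and -4.15, Plk1, a mitotic kinase, at -3.85 ± 0.16, Rrm2, which makes deoxynucleotides, at -3.77 ± 0.14, and Ndc80, of the kinetochore, at -3.53 ± 0.14. Under spike-in centring all 44 were called lower.

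The 4 rats agreed closely for most genes. The median SD of the log2 ratio was 0.14 over genes with a symbol and 95% of them lay below 0.38, and 47 genes had an SD of 1 or more. Each SD holds the difference between animals and the error of 1 array each. Metallothioneins, which bind zinc and copper, set control 3 apart. Mt1 lay at 1.51, 0.44, 4.37 and 0.25 in controls 1 to 4 and Mt2A at -0.44, -1.20, 2.59 and -1.32. In both, control 3 stood far above the other 3 rats. Control 4 was lowest for Cpb1, at 3.61, 4.74, 4.38 and 0.50, and for Fmo5, a flavin monooxygenase, at 3.85, 4.31, 3.98 and 1.05, while control 2 was highest for Sult2a6, a sulfotransferase of bile acids and steroids, at 6.18, 8.39, 6.42 and 4.03, and lowest for Ces2e, a carboxylesterase, at 5.02, 1.04, 4.22 and 4.22. The reference was above background on 1 array for Cpb1, on 3 for Sult2a6 and on none for Ces2e, which was at least 12.3-fold higher. Inmt, a methyltransferase, was high in controls 1 and 3, at 4.07, 1.504, 4.67 and 1.23. Akr1b7 ran widest of the genes named, at 3.49, 6.17, -0.18 and 4.76, with its liver signal above background on 3 arrays; it was not called with all 4 rats (adjusted p = 0.058) and was called without control 3 (4.81, adjusted p = 0.000663). With fewer arrays tested, some calls of limma's test were lost. Without control 1, A1bg, Cpb1, Inmt and Sds lay at 2.84, 3.20, 2.47 and 2.79 (adjusted p = 0.0555, 0.0855, 0.151 and 0.123). Cpb1 also lost its call without control 2 or control 3. Inmt and Sds, each at 2.27, lost theirs without control 3 as well (limma's test, adjusted p = 0.113 and 0.0577). A1bg also lost its call without control 4 (2.73, limma's test, adjusted p = 0.0644) but kept it, at 1.84, without control 2.

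Genes that follow feeding varied most among the lists. Of 27 tested, 17 had an SD above the 95th percentile of all tested genes with a symbol, and the list's median SD was 0.47. Fasn, fatty acid synthase, lay at 3.23, 4.38, 1.87 and 3.38, Elovl6, a fatty acid elongase, at 0.92, 1.91, -1.28 and 0.58, and Me1, which supplies reducing power for lipid synthesis, at 2.60, 2.74, 0.83 and 1.49. Control 3 was lowest and control 2 highest in all 3. Of 8 lipogenic and glycolytic genes examined (with Acly, Acaca, Scd, Thrsp and Pklr), control 3 had the lowest liver signal in 7 and control 2 the highest in 7; Scd was the other one in both counts. These 8 were chosen with the values known, and the signals were not scaled between arrays. Sds, serine dehydratase, which breaks down an amino acid for gluconeogenesis, ran the other way, at 3.69, 1.26, 5.24 and 1.86, highest in control 3, with the reference above background on 2 arrays. Igfbp1 was higher in controls 1 and 3 than in 2 and 4. The labels used here do not give feeding state or time of killing, and what part these have was not tested.

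The reference channel, which held the same RNA on every array, moved with the liver channel for part of the strongest genes. The liver signal of Thrsp on the log2 scale was 15.96, 16.01, 14.21 and 15.20 in controls 1 to 4 and its reference signal was 10.88, 10.88, 9.33 and 10.16. Both were lowest on the array of control 3. The ratio therefore had an SD of only 0.11, while the liver signal had one of 0.84 and the reference signal one of 0.74. Pnpla5, a lipase of the same family as adiponutrin, showed the same, with SDs of 1.22 and 1.00. Of 64 genes with a symbol, a log2 ratio of 4 or more and a liver signal ranging over at least 1 between arrays, 34 had a reference signal that rose by at least 0.3 for each unit of liver signal; below a ratio of 4 the count was 55 of 359. Only genes above background in both channels on all arrays entered these counts. The signals were not scaled between arrays, so the brightness of a whole array moves both channels. Before correction, the median spot signal of the reference channel was 358, 363, 353.5 and 373 in controls 1 to 4, on a linear scale. In the liver channel it was 154.5, 159, 138 and 122. The counts cannot tell the brightness of a whole array from a reference signal that follows the liver gene by gene. The cause was not tested, but for Thrsp the ratio varied less between rats than the liver signal did. Scd, whose reference signal had an SD of 0.05, was not among these genes.

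**Figure D5:**
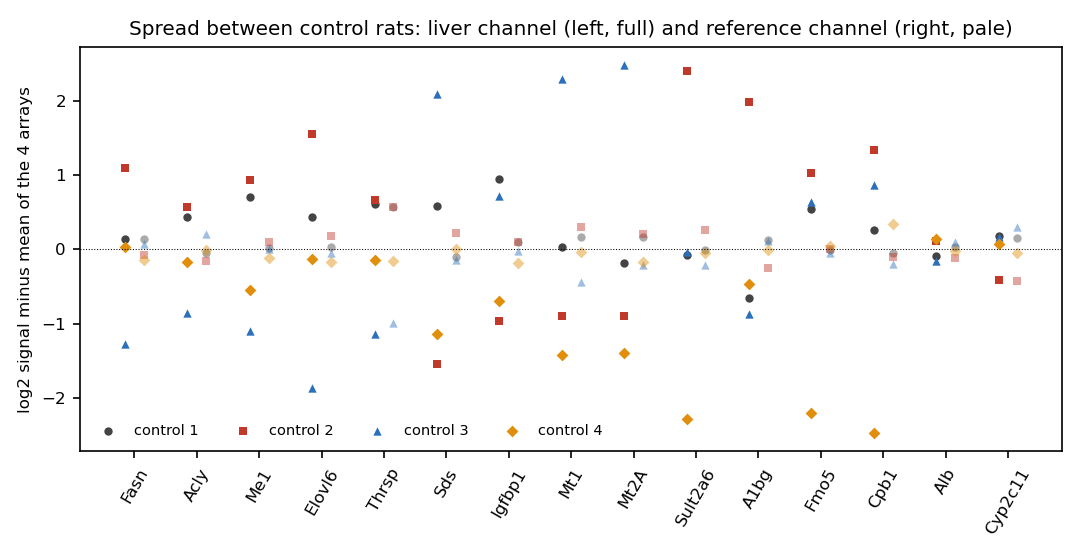
Log2 signal of 15 genes on each control array, less the gene's mean over the 4 arrays. The liver channel is on the left in full colour and the reference channel on the right, pale. Signals were not scaled between arrays, and symbols mark controls 1 to 4. Control 3 lies high for Mt1, Mt2A and Sds and low for Fasn, Elovl6 and Me1, and the reference of Thrsp moves with the liver, while Alb varies little.

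Of the genes named, 26 had several tested probes, and in 19 of these the probes lay at least 1 apart in log2 ratio. Besides those given above, the dimmer probes lay at 5.93 for Bhmt2, 6.39 for Hsd3b5, 5.90 for Hbb and 6.47 for Hba-a1. They lay at -2.03 for Col1a1, -2.22 for Rrm2, -0.95 for Pkm, -0.53 for Gys1, -1.85 for Nes and -1.53 for Mt2A, and at -1.45 and -1.38 for Pou2af1. With the mean of a gene's probes, 2 of the genes named lost a call, Cyp2s1 and Fn1, and none gained one.

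Controls 1 and 2 lay in slide row 1 and controls 3 and 4 in row 2. Row 1 alone gave 2471 features called higher and 2018 lower, and row 2 alone 2311 and 1805.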

How the data were processed

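The 4 control arrays were analysed as 4 samples numbered in accession order, which pair nothing. Per the labels' protocols and the file headers, the authors hybridised Cy5-labelled liver RNA with Cy3-labelled reference to an Agilent rat 60K array and read it with Feature Extraction 10.7.3.1. The deposited scanner files hold spot intensity on a linear scale (median signal and background of each channel). The authors' deposited table holds processed log2 ratios, which followed the ratios computed here with correlations of 0.995 to 0.996, slopes of 0.997 to 1.009 and medians of -0.057 to -0.048; its exact scaling is not given in the sources used here. The scanner's flags for background, outliers and saturation and its spike-in log10 ratios (score and other columns as deposited) were also read.

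Signals were corrected with normexp (offset 50) and normalized within each array by loess, with control spots at weight 0 and outlier-flagged spots (743 to 884 an array) left out, in limma 3.58.1 under R 4.3.3. Spots of a probe were averaged and the brightest of a gene's probes stood for it; 2091 genes had several tested probes and 389 of these disagreed on the call, 2 in opposite directions. The ratios were tested with limma (treat, two-sided, minimum fold of 2, Benjamini-Hochberg); on simulated data over 20021 features, 82% of genes at a true log2 ratio of 1.5, 94% at 2 and 0% at 0 were called. The test leaves out the spread of the reference, which is 1 RNA. Nothing in the labels says whether spread between arrays is animal or technical.

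Genes were named by rule. The 15 highest and 15 lowest called genes above background in both channels and the 8 largest bounds each way were taken. So were up to 4 members of each list and direction with the smallest p. To these came the 12 with the largest SD among genes above background in liver on all 4 arrays. Added last were 25 fixed genes, of which Cyp2b1, Stab2 and Mki67 were not tested. The text names a part of these 329, and Acaca, Acly, Elovl6, Fasn, Me1, Pnpla5, Scd and the pairs of isoforms after their values were seen. The comparison, its members and the 43 lists were chosen with earlier results of these data known. Several lists share members, and some members are not reported here by name. Symbols are those of RefSeq, matched to the accession that the array gives for each probe. Promoters are from RefSeq, build GRCr8, matched by symbol. No spot was saturated. The number of arrays limits the precision.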

Additional observations from a re-analysis of the deposited data

Results flagged for a closer look

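In 8 of the genes named, 1 rat lay apart from the other 3 by more than Dixon's 95% limit for 4 values (a gap over 0.829 of the range); over all genes with 4 values this happened in 1008 of 20018 (5.04%), close to the 1 in 20 that chance gives. The log2 ratio of A1bg was 4.81 in control 2 against 1.59 to 2.12 in the others, and that of Fmo5 was 1.05 in control 4 against 3.85 to 4.31. Gzma, a cytotoxic protease, was at 2.96 in control 4 against 3.68 to 3.72. In control 3, Cyp2c13 was at 8.09 against 8.33 to 8.36, Dio1 at 5.91 against 6.07 to 6.09, Serpina1 at 8.02 against 8.24 to 8.26 and Serpinc1 at 9.30 against 9.51 to 9.53. Scp2 was at 5.40 in control 2 against 5.22 to 5.24.

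The spike-in RNAs, which enter no comparison, lay on average 1.72 (1.60 to 1.84 over the 4 arrays, log2) above their design ratio after loess. The design ratio was inferred from the scanner software's own fit of the same spike-ins, whose intercepts were 1.35 to 1.59 log2 and slopes 0.915 to 0.921, so the fit is the source of this value and not a second measurement of it.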

How the results depend on the processing

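Settings that moved a count by over 1.5 times are given here. Features called lower (2158) numbered 3856 with plain background subtraction and 4755 on the scanner's processed signals. Higher and lower counts (2589 and 2158) became 1670 and 5629 with median centring, 883 and 9462 with no centring, and 940 and 14639 centred on the spike-ins, an alternative chosen after seeing the data. They were 7599 and 8105 with no minimum fold, 4041 and 3731 at 1.5-fold and 1255 and 660 at 4-fold. Without 1 rat in turn they ran from 2413 to 2546 and from 1975 to 2125. The authors' table gave 2187 and 2806.

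Of the genes named, 14 changed sign somewhere, mostly those near 0. On the spike-ins' centre and with no centring the values were -0.12 and -0.12 for Acaca, -1.19 and -1.26 for Elovl6, -0.43 and -0.46 for Fn1, -0.82 and -0.84 for Glul, -1.71 and -1.68 for Hprt1, -1.56 and -1.58 for Krt19, -0.07 and -0.10 for Mt1, -1.30 and -1.38 for Ppia, -0.05 and -0.04 for Sdhd, and -0.53 and -0.42 for Snai2. Median centring put Dio3 at 0.50, Elovl6 at -0.40, Hprt1 at -0.83, Krt19 at -0.72, Ppia at -0.52 and Slc51a at 0.57. Other background settings and the authors' table put Dio3 at 0.08 (none subtracted), 0.00 (normexp without offset) and 0.01 (table), Hprt1 at -0.05 (plain subtraction), -0.28 (processed) and -0.48 (table), and Krt19 at -0.01 (table). Slide row 1 alone put Hprt1 at -0.03 and Krt19 at -0.10, and row 2 put Cpt1b at 0.03, Dio3 at 0.15, Elovl6 at -0.35 and Mt2A at 0.63. Leaving out 1 rat in turn gave -0.06 to 0.10 for Dio3, -0.99 to 0.32 for Mt2A, -0.08 to 0.02 for Cpt1b, -0.05 to 0.09 for Hprt1 and -0.09 to 0.38 for Krt19. Apart from the centring and the choice of rats, the cause was not tested.

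No paired analysis was possible because the replicate numbers only follow accession order, and only 1 group is described. Liver gave no signal above background on any array for 3707 tested features, whose ratios are bounds.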
